A study of Mus musculus with 8 samples.

Results

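The genes described here encode the enzymes of glycolysis, of the pentose phosphate pathway and of glycogen turnover, with the enzymes that decide the fate of pyruvate. They were taken by gene symbol from a list of 38, of which 37 had a row in the expression table, out of 58304 genes kept from it. PGLS, the lactonase of the pentose phosphate pathway, was not analysed here. The study compared RNA-seq profiles of 4 libraries labelled as wounds treated with rFGF4 and 4 labelled as wounds treated with PBS. The name rFGF4 stands for a recombinant form of the growth factor FGF4, and PBS is the buffer control. Per the labels both groups came from C57BL/6 mice aged 6 to 8 weeks, with RNA taken from the wound and the 2 mm of skin around it at 6 days, and the labels give no genetic change in either group. The table goes against that description: all 58825 of its gene identifiers are human and 0 are mouse. Values are therefore attributed to "the rFGF4 libraries" and "the PBS libraries" by the names of the table's columns, and nothing is said of mouse wounds. The labels do not say whether the libraries came from separate animals, donors or cultures, so the p-values measure the spread between these libraries, which may be technical.

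The libraries held 62044121 to 73680756 estimated counts each. Of 9 basal keratinocyte markers 9 stood at a mean of at least 1 FPKM (the fragment count of a gene divided by its length and by library size), with a summed level of 2142 to 2254 FPKM in the rFGF4 libraries and 2332 to 2659 FPKM in the PBS libraries. Of 7 fibroblast markers 0 reached that mean, with THY1 at 0 in every library and a sum of 0.411 to 0.512 FPKM in the rFGF4 libraries and 0.776 to 0.864 FPKM in the PBS libraries. Of 6 leukocyte markers 1 reached it, with sums of 7.9 to 10.6 and 7.19 to 8.66 FPKM in the rFGF4 and PBS libraries, and of 4 endothelial markers 1, with sums of 3.06 to 4.08 and 1.85 to 3.05 FPKM. Of 7 skeletal muscle markers, which include the muscle forms of enolase, phosphoglycerate mutase and glycogen phosphorylase, 0 reached it, and PGAM2 and MYH2 were at 0 in every library. Of 3 erythrocyte markers 0 reached it, with sums of at most 0.155 FPKM. The labelled tissue is skin, and the markers of its fibroblasts and of red blood cells were thus near 0. Whether the differences in these sums have a part in the results below was not tested.

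Glycolysis splits glucose into pyruvate in the cytosol, and hexokinase, phosphofructokinase and pyruvate kinase catalyse its irreversible steps. The pentose phosphate pathway branches off at glucose 6-phosphate and yields NADPH and ribose 5-phosphate, the sugar of nucleotides. Glycogen is a store of glucose that keratinocytes build up and break down, and many of these enzymes exist as isozymes that differ between tissues. Proliferating keratinocytes and healing epidermis are known for high glycolytic flux, which depends on enzyme activity and glucose supply as well as on mRNA.

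Most of these enzyme genes were at similar levels in both groups, and the gene with the largest change was HK2, hexokinase 2, which stood about 1.96-fold higher in the rFGF4 libraries. Of the 37 genes with a row, 34 passed the filter on low values, a mean of at least 1 FPKM over the 8 libraries, and were tested. Among them 4 rose in the rFGF4 libraries (HK2, PFKP, PYGB and RPIA), 1 fell (PFKFB4) and 29 did not pass (edgeR quasi-likelihood test, Benjamini-Hochberg adjusted over all 11536 genes tested, threshold 0.05). The 5 called genes are 14.7% of those tested, beside 10.0% of all genes tested, so the number of calls is near the background. In the higher direction the call rule took 11.8% of the 34 genes, beside 5.49% of all genes tested. In the lower direction it took 2.94% of the 34 genes, beside 4.54%. On TMM-scaled CPM (edgeR's correction for library composition), 5 of the 34 genes (14.7%) had every rFGF4 library above every PBS library, beside 10.1% of all genes tested, and 3 (PFKFB4, PGK1 and UGP2; 8.82%) had every rFGF4 library below, beside 9.26%. The median log2 fold change, rFGF4 over PBS, was −0.01 over the 34 enzyme genes and 0.002 over all genes tested. The fold change was between −0.2 and 0.2 on the log2 scale for 27 of the 34 genes (79.4%), beside 61.2% of all genes tested. The enzyme genes were also more abundant, with a median level of 22.1 FPKM against 5.71 FPKM over all genes tested.

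**Figure D1:**
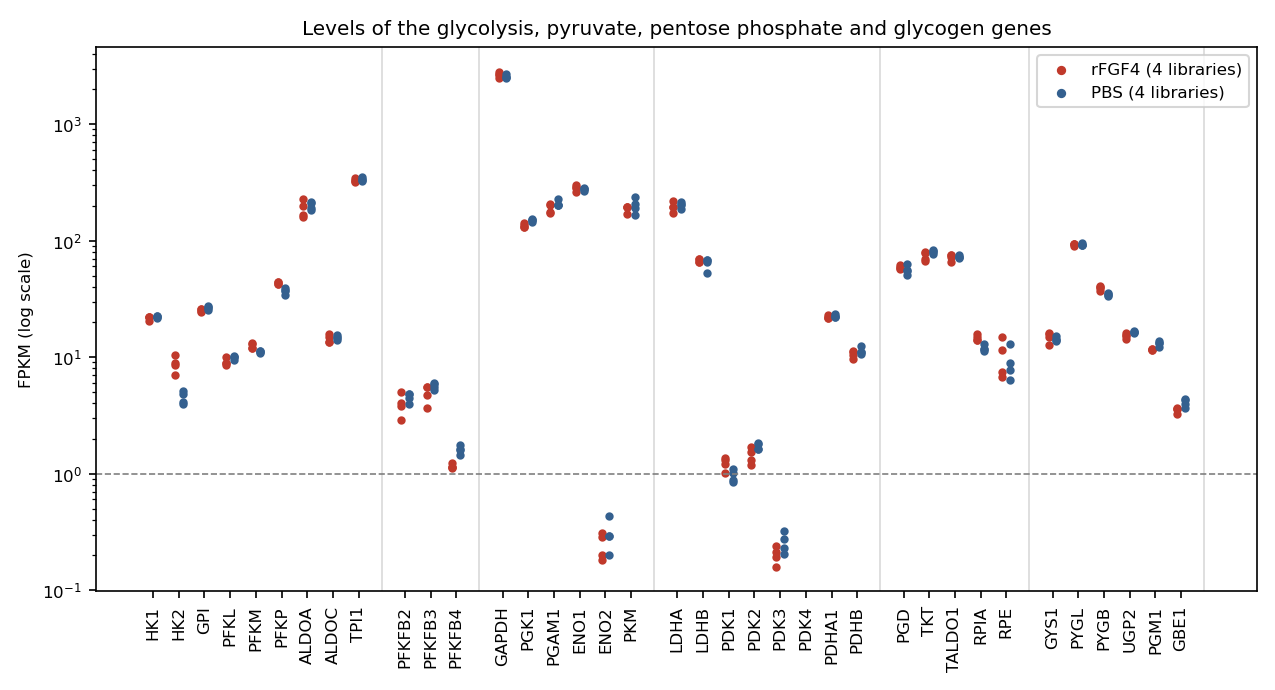
FPKM (log axis) of 36 enzyme genes in each of the 4 rFGF4 libraries (red) and the 4 PBS libraries (blue), ordered by step, with the filter of 1 FPKM dashed and PDK4, listed at 0, left undrawn. GAPDH averages 2615 FPKM, the tested enzymes from PGK1 to PKM lie above 100 FPKM, ENO2 lies below the filter, and the pyruvate dehydrogenase kinases lie around or below 2 FPKM, in both groups.

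Levels spanned the whole range of the libraries. GAPDH, the dehydrogenase that makes NADH in glycolysis, averaged 2660.1 ± 133 FPKM in the rFGF4 libraries and 2571 ± 89.7 FPKM in the PBS libraries (SD, n = 4 each), rank 12 of the 11536 genes tested. The other abundant members were TPI1, ENO1, LDHA, PGAM1, ALDOA, PKM and PGK1, with means of 134 to 337 FPKM in either group. At the other end, PDK3 stood at 0.237, 0.211, 0.193 and 0.159 FPKM in the rFGF4 libraries and 0.276, 0.205, 0.324 and 0.23 FPKM in the PBS libraries, below the filter. ENO2, the neuronal enolase, was also below it, with 0.245 ± 0.0616 FPKM in the rFGF4 libraries and 0.304 ± 0.0944 FPKM in the PBS libraries (SD, n = 4 each). LRRC23, on the same strand, shares 497 bases with ENO2 and had 329% as many counts, at most 520% in any library. Whether reads from LRRC23 have a part in the ENO2 level was not tested. PDK4 had 0 counts in all 8 libraries, which allows up to about 3 fragments, or 12 estimated counts, in each, a level of 0.163 to 0.193 CPM (counts scaled to library size). This limit covers counting error only.

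Hexokinase phosphorylates glucose as it enters the cell, and HK2 is the inducible isozyme while HK1 is the form found in most tissues. HK2 (ENSG00000159399, chromosome 2, 74833981 to 74893359, plus strand, in the coordinates of the table) stood at 8.9, 10.4, 8.59 and 7.01 FPKM in rFGF4 replicates 1 to 4, against 4.83, 3.99, 5.14 and 4.12 FPKM in PBS replicates 1 to 4. Every rFGF4 library was above every PBS library, and rFGF4 replicate 4 was the lowest of its group. HK2 rose with a log2 fold change of 0.97 (SE 0.11, 95% interval 0.71 to 1.23, edgeR adjusted p = 0.00181). In these bulk libraries a change in the number of cells of a type and a change in RNA per cell cannot be told apart. The HK2 call held under all 17 alternatives run, with adjusted p from 1.13e-11 to 0.0143. HK1 stood at 21.9, 22.1, 22.1 and 20.4 FPKM in the rFGF4 libraries and 22.1, 22.4, 22.4 and 21.5 FPKM in the PBS libraries. Those ranges overlap, and the log2 fold change was −0.01 with an interval from −0.11 to 0.1 (edgeR adjusted p = 0.94). HK1 remained the more abundant isozyme per length in all 8 libraries. HK2 supplied 25.6% to 32% of the summed hexokinase FPKM in the rFGF4 libraries and 15.1% to 18.7% in the PBS libraries.

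A long noncoding gene on the opposite strand, AC019069, overlaps the first 7 bases of HK2 and was looked up after the HK2 values were seen. It stood at 3.91, 3.48, 4 and 3.7 FPKM in the rFGF4 libraries, against 2.13, 2, 2.2 and 2.33 FPKM in the PBS libraries. It was higher in every rFGF4 library than in any PBS library, by 0.83 on the log2 scale (SE 0.11, edgeR adjusted p = 0.00267). No label or header states that the counting was stranded, so reads at the overlap cannot be assigned to either gene. The 1 pseudogene named after HK2 held at most 0.407% of the HK2 counts.

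**Figure D2:**
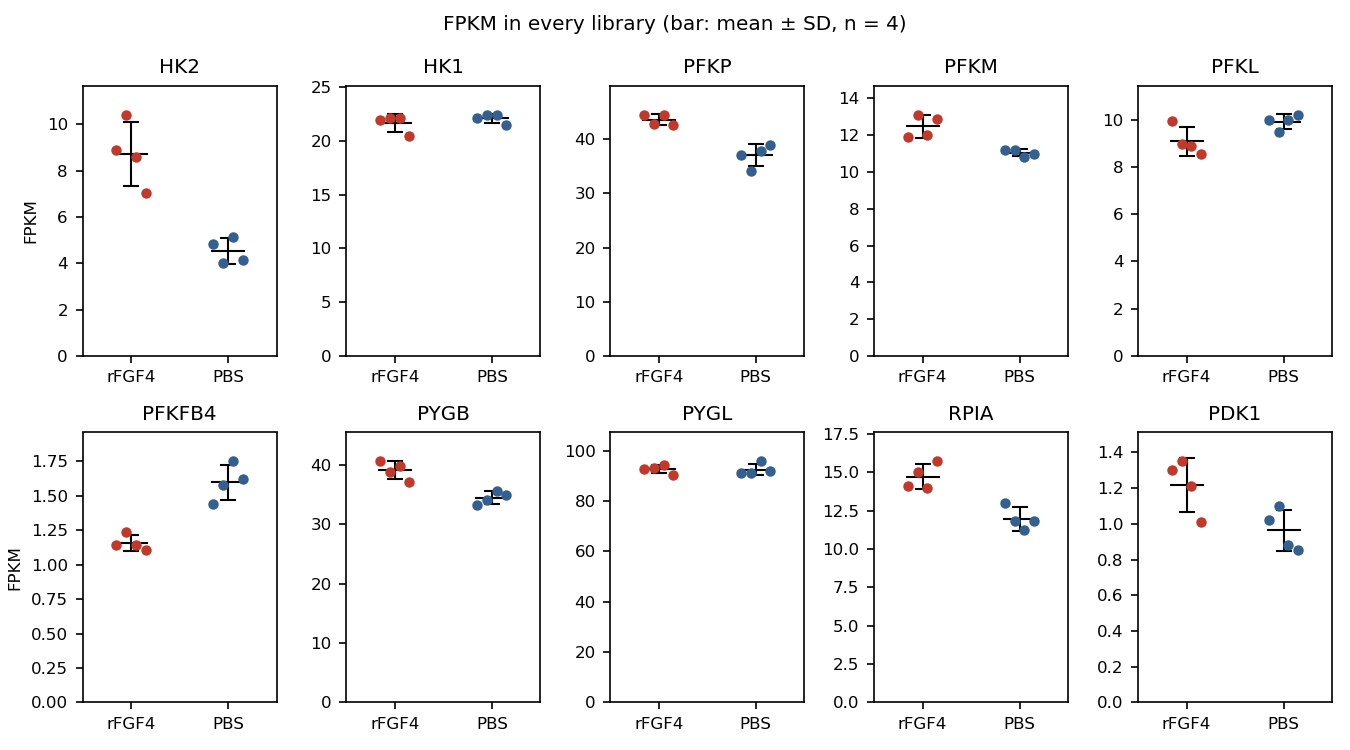
FPKM of 10 enzyme genes in each library, rFGF4 left of PBS, with the mean and SD of 4 libraries as a bar. HK2, PFKP, PFKM, PYGB and RPIA show 4 rFGF4 libraries above the 4 PBS libraries, PFKFB4 shows the opposite, and HK1, PFKL, PYGL and PDK1 overlap.

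GPI, which isomerises glucose 6-phosphate to fructose 6-phosphate, averaged 25.2 ± 0.578 FPKM in the rFGF4 libraries and 26.6 ± 0.822 FPKM in the PBS libraries (SD, n = 4 each). Its log2 fold change was −0.05 (SE 0.06) and did not pass.

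Phosphofructokinase, the pace-setting enzyme of glycolysis, is a tetramer of subunits from 3 genes, and the platelet-type gene PFKP was the most abundant of them. PFKP stood at 44.5, 42.8, 44.4 and 42.6 FPKM in the rFGF4 libraries, against 37.1, 34.2, 37.8 and 39 FPKM in the PBS libraries. The groups did not overlap, and PFKP rose by 0.26 on the log2 scale (SE 0.06, interval 0.13 to 0.39, edgeR adjusted p = 0.0272). PFKM, the muscle-type gene, stood at 11.9, 13.1, 12 and 12.9 FPKM in the rFGF4 libraries, against 11.2, 11.2, 10.8 and 11 FPKM in the PBS libraries. Those groups did not overlap either, but its log2 fold change of 0.2 (SE 0.06, interval 0.07 to 0.33) did not pass (edgeR adjusted p = 0.0679). PFKL, the liver-type gene, stood at 9.94, 8.95, 8.9 and 8.54 FPKM in the rFGF4 libraries and 10, 9.47, 10 and 10.2 FPKM in the PBS libraries. These overlap, and the log2 fold change was −0.1 (SE 0.06, edgeR adjusted p = 0.325). The summed level of the 3 subunit genes was 64.1 to 66.4 FPKM in the rFGF4 libraries and 54.9 to 60.2 FPKM in the PBS libraries, and these sums did not overlap. The call for PFKP ended without rFGF4 replicate 1 or 3 or PBS replicate 1, 2 or 3, with adjusted p from 0.067 to 0.0873 by edgeR and log2 fold changes still at 0.22 or more. With every library kept, it also ended with no filter on low values (edgeR adjusted p = 0.0679). For PFKM, SENP1 on the opposite strand shares 941 bases and had 49.2% as many counts as PFKM; it averaged 7.16 ± 0.788 FPKM in the rFGF4 libraries and 6.6 ± 0.972 FPKM in the PBS libraries (SD, n = 4 each).

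The PFKFB genes encode bifunctional enzymes that make and remove fructose 2,6-bisphosphate, an activator of phosphofructokinase. PFKFB4 stood at 1.14, 1.24, 1.14 and 1.11 FPKM in the rFGF4 libraries, against 1.44, 1.58, 1.75 and 1.62 FPKM in the PBS libraries. Every rFGF4 library was below every PBS library, and PFKFB4 fell by 0.44 on the log2 scale (SE 0.09, interval −0.64 to −0.24, edgeR adjusted p = 0.0152). PFKFB4 was among the least abundant genes tested, at percentile 7.85 of their mean FPKM. PFKFB3, whose product mainly makes the activator, stood at 5.5, 5.56, 4.76 and 3.64 FPKM in the rFGF4 libraries and 5.94, 5.83, 5.59 and 5.21 FPKM in the PBS libraries. PFKFB2 stood at 4.07, 5.04, 3.81 and 2.86 FPKM in the rFGF4 libraries and 4.85, 4.45, 4.81 and 3.97 FPKM in the PBS libraries. The groups overlap for both, with rFGF4 replicate 4 the lowest of the 8 libraries for each. Their log2 fold changes were −0.19 (SE 0.12, interval −0.46 to 0.07) for PFKFB3 and −0.18 (SE 0.14, interval −0.5 to 0.14) for PFKFB2, and neither passed. The PFKFB4 call ended without rFGF4 replicate 1 or 3 or PBS replicate 2, where the edgeR adjusted p was 0.05 to 0.0512 and the log2 fold change −0.45 to −0.43. YOD1, on the opposite strand, shares 9132 bases with PFKFB2, and UCN2, on the same strand, shares 255 bases with PFKFB4 and stood at 0.0127 FPKM in PBS replicate 2 against 0.929 to 1.72 FPKM in the other 7 libraries.

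The enzymes from aldolase to pyruvate kinase are mostly present as 1 dominant gene each. ALDOA, the main aldolase, stood at 200, 167, 227 and 159 FPKM in the rFGF4 libraries and 184, 192, 212 and 215 FPKM in the PBS libraries. The rFGF4 libraries spread more widely than the PBS libraries and the groups overlap (log2 fold change −0.07, SE 0.12). AC093512, a protein-coding gene on the same strand, overlaps ALDOA and had 11.8% as many counts, at most 17.5% in any library. Whether shared reads have a part in the ALDOA level or its spread was not tested. ALDOC, the brain-type aldolase, averaged 14.4 ± 1.1 FPKM in the rFGF4 libraries and 14.8 ± 0.582 FPKM in the PBS libraries (SD, n = 4 each). TPI1, which interconverts the triose phosphates, averaged 328 ± 11.9 and 337 ± 12 FPKM in the rFGF4 and PBS libraries. None of these passed, and the intervals of ALDOC (−0.19 to 0.15) and TPI1 (−0.15 to 0.13) lie within 0.2 of zero on the log2 scale.

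GAPDH stood at 2673, 2490.2, 2662 and 2815 FPKM in the rFGF4 libraries and 2478, 2558, 2553 and 2693 FPKM in the PBS libraries. The groups overlap, and its log2 fold change was 0.08 (SE 0.07, interval −0.08 to 0.23, edgeR adjusted p = 0.541). PGK1, which makes the first ATP of the pathway, stood at 129.7, 142, 135 and 132 FPKM in the rFGF4 libraries, against 144, 149, 151 and 154 FPKM in the PBS libraries. Every rFGF4 library was lower, but the log2 fold change of −0.13 (SE 0.05, interval −0.24 to −0.02) did not pass after adjustment (edgeR adjusted p = 0.145). ENO1, the enolase of most tissues, averaged 284 ± 15.3 FPKM in the rFGF4 libraries and 277 ± 7.37 FPKM in the PBS libraries (SD, n = 4 each), a log2 fold change of 0.06 (SE 0.06). PGAM1, phosphoglycerate mutase, stood at 202, 175, 205 and 173 FPKM in the rFGF4 libraries and 201, 202, 200.3 and 229 FPKM in the PBS libraries, with a log2 fold change of −0.12 (SE 0.09). PKM, which encodes both splice forms of the pyruvate kinase of proliferating cells and of muscle, stood at 193, 194, 194 and 170.1 FPKM in the rFGF4 libraries and 237, 167, 207 and 190.2 FPKM in the PBS libraries. Its log2 fold change was −0.07 (SE 0.1, interval −0.29 to 0.15), and the splice forms are not separated in the table. No gene from GAPDH to PKM passed the test.

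**Figure D3:**
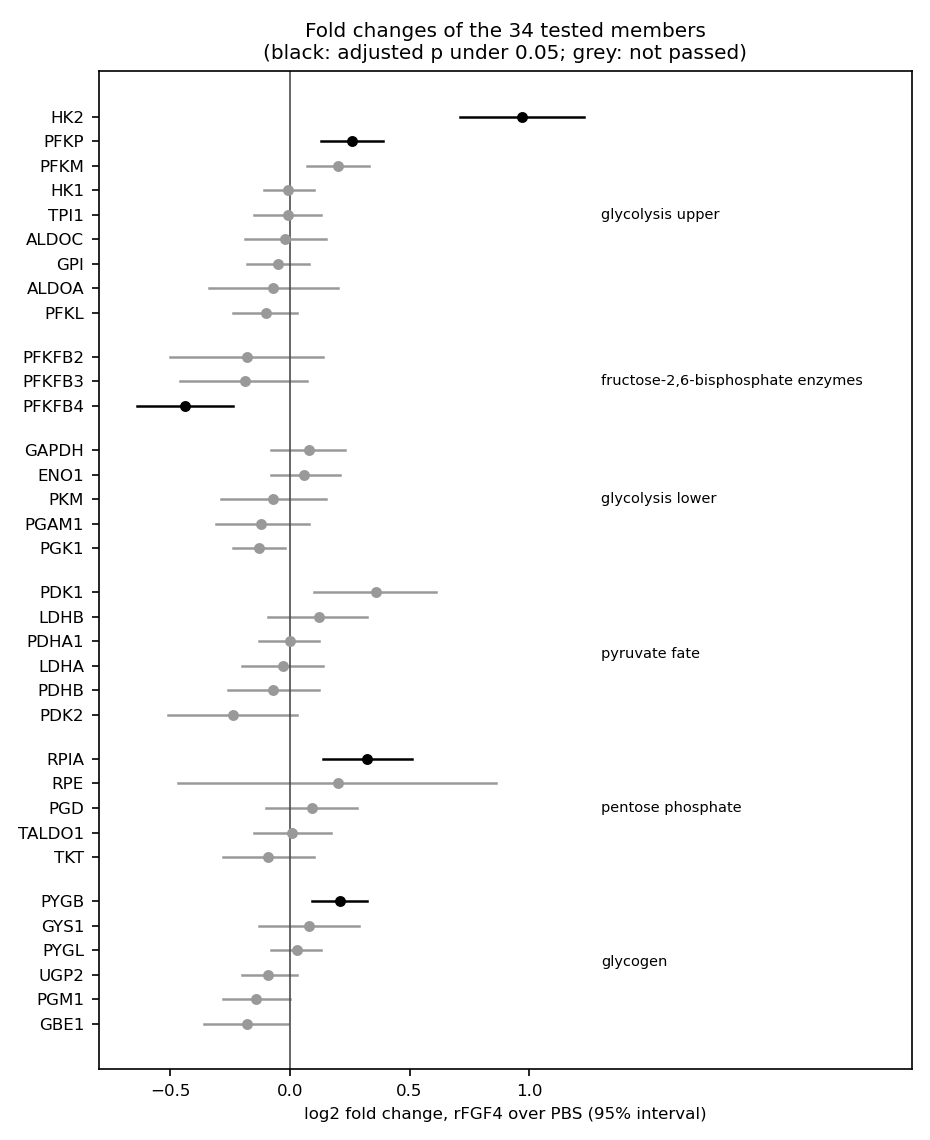
Log2 fold change, rFGF4 over PBS, with its 95% interval for the 34 tested enzyme genes by role, in black where the edgeR adjusted p was under 0.05. HK2 stands apart at 0.97, PFKP, PYGB, RPIA and PFKFB4 lie between −0.44 and 0.32, and most grey intervals cross 0.

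Pyruvate is either reduced to lactate by lactate dehydrogenase or taken into mitochondria and oxidised by the pyruvate dehydrogenase complex, which the PDK kinases switch off. LDHA, whose subunit prevails in tissues that make lactate, stood at 173, 219.9, 196 and 193 FPKM in the rFGF4 libraries and 202, 207, 216 and 186 FPKM in the PBS libraries. LDHB, the heart-type subunit gene, stood at 65.7, 65.2, 70.2 and 69.9 FPKM in the rFGF4 libraries and 65.8, 53.1, 67.9 and 67.9 FPKM in the PBS libraries. Both overlap between the groups, with log2 fold changes of −0.03 (SE 0.07, interval −0.2 to 0.14) for LDHA and 0.12 (SE 0.09, interval −0.09 to 0.32) for LDHB.

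PDK1, the kinase gene known as a hypoxia target, stood at 1.3, 1.35, 1.21 and 1.01 FPKM in the rFGF4 libraries, against 1.02, 1.1, 0.883 and 0.854 FPKM in the PBS libraries. Replicates 1 to 3 of rFGF4 were above every PBS library and replicate 4 was not. The log2 fold change was 0.36 (SE 0.11, interval 0.1 to 0.61) and did not pass (edgeR adjusted p = 0.0891); without rFGF4 replicate 4 it was 0.42 and passed (edgeR adjusted p = 0.0481). PDK2 stood at 1.32, 1.53, 1.7 and 1.19 FPKM in the rFGF4 libraries and 1.85, 1.79, 1.63 and 1.63 FPKM in the PBS libraries, a log2 fold change of −0.24 (SE 0.12, interval −0.51 to 0.03) that did not pass. PDK1 made up 39% to 45.5% of the summed FPKM of the 4 kinase genes in the rFGF4 libraries and 31.1% to 35.6% in the PBS libraries, while PDK2 made up 46.2% to 54.8% in the rFGF4 libraries and 57.4% to 60.1% in the PBS libraries. The sum itself was 2.36 to 3.11 FPKM in the rFGF4 libraries and 2.72 to 3.15 FPKM in the PBS libraries. PDHA1 and PDHB, the subunits of the first enzyme of the complex, averaged 22.2 ± 0.663 and 10.6 ± 0.715 FPKM in the rFGF4 libraries, against 22.6 ± 0.583 and 11.3 ± 0.808 FPKM in the PBS libraries (SD, n = 4 each). Neither passed, and the interval for PDHA1 ran from −0.13 to 0.12.

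In the pentose phosphate pathway the gene that rose was RPIA, the isomerase that yields ribose 5-phosphate. RPIA stood at 14.1, 15, 14 and 15.7 FPKM in the rFGF4 libraries, against 13, 11.8, 11.2 and 11.8 FPKM in the PBS libraries. The groups did not overlap, and RPIA rose by 0.32 on the log2 scale (SE 0.08, interval 0.14 to 0.51, edgeR adjusted p = 0.0401). RPE, the epimerase that acts on the same substrate, stood at 7.39, 14.9, 6.76 and 11.5 FPKM in the rFGF4 libraries and 12.9, 8.95, 7.81 and 6.31 FPKM in the PBS libraries. It varied by more than any other tested member between libraries of the same group (log2 fold change 0.2, SE 0.29), and its interval of −0.47 to 0.86 leaves a change of either sign undecided. KANSL1L, on the opposite strand, shares 839 bases with RPE and had 22.2% as many counts, at most 32.9% in any library. PGD, which forms NADPH, stood at 59.1, 56.8, 57.9 and 61.9 FPKM in the rFGF4 libraries and 50.9, 63.3, 54.6 and 56.1 FPKM in the PBS libraries (log2 fold change 0.09, SE 0.08). TKT, transketolase, stood at 70.2, 67.3, 77.7 and 80.3 FPKM in the rFGF4 libraries and 76.9, 81.7, 79.7 and 83 FPKM in the PBS libraries (log2 fold change −0.09, SE 0.08). TALDO1, transaldolase, averaged 71.9 ± 4.53 and 72.8 ± 1.85 FPKM in the rFGF4 and PBS libraries (SD, n = 4 each). Their groups overlap and none of these 4 passed. The call for RPIA ended when any 1 of the 8 libraries was left out, with edgeR adjusted p from 0.0564 to 0.11 and log2 fold changes from 0.27 to 0.36. With every library kept, it also ended with no filter, filterByExpr, the filter of 0.1 FPKM and the replicate block.

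Of the glycogen enzymes, the phosphorylase gene PYGB rose and PYGL did not. PYGB, the brain-type form, stood at 40.6, 38.9, 39.9 and 37.2 FPKM in the rFGF4 libraries, against 33.2, 34.1, 35.7 and 35 FPKM in the PBS libraries. The groups did not overlap, and the log2 fold change was 0.21 (SE 0.05, interval 0.09 to 0.32, edgeR adjusted p = 0.0373). PYGL, the liver-type form and the more abundant one here, stood at 92.7, 93.2, 94.3 and 90.4 FPKM in the rFGF4 libraries and 91.2, 91.2, 95.8 and 92.1 FPKM in the PBS libraries. These overlap, with a log2 fold change of 0.03 and an interval from −0.08 to 0.13. The call for PYGB ended without rFGF4 replicate 1 or 3 or any 1 of the PBS libraries, with edgeR adjusted p from 0.063 to 0.114 and log2 fold changes of 0.18 to 0.22. With every library kept, it also ended with no filter, filterByExpr, both limma settings and the replicate block. ABHD12, on the opposite strand, shares 3270 bases with PYGB and averaged 16.3 ± 1.3 FPKM in the rFGF4 libraries and 17.6 ± 1.24 FPKM in the PBS libraries (SD, n = 4 each).

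GYS1, the glycogen synthase of most tissues, stood at 14.9, 12.8, 15.8 and 16 FPKM in the rFGF4 libraries and 15.3, 14.1, 14.2 and 13.7 FPKM in the PBS libraries (log2 fold change 0.08, SE 0.09). UGP2, which makes the UDP-glucose that the synthase uses, averaged 15.3 ± 0.771 and 16.4 ± 0.357 FPKM in the rFGF4 and PBS libraries (SD, n = 4 each). PGM1, which links glucose 1-phosphate to glycolysis, stood at 11.6, 11.7, 11.6 and 11.8 FPKM in the rFGF4 libraries, against 12.2, 13.1, 13.2 and 13.8 FPKM in the PBS libraries. GBE1, the branching enzyme, stood at 3.6, 3.56, 3.65 and 3.27 FPKM in the rFGF4 libraries, against 4.38, 3.95, 4.26 and 3.67 FPKM in the PBS libraries. In FPKM the groups of PGM1 and of GBE1 did not overlap, but after TMM scaling they did, while those of UGP2 overlapped in FPKM and not after scaling. The log2 fold changes were −0.14 (SE 0.06) for PGM1, −0.18 (SE 0.08) for GBE1 and −0.09 (SE 0.05) for UGP2, and none passed (edgeR adjusted p = 0.191, 0.176 and 0.334). ITGB3BP, on the opposite strand, shares 311 bases with PGM1.

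**Figure D4:**
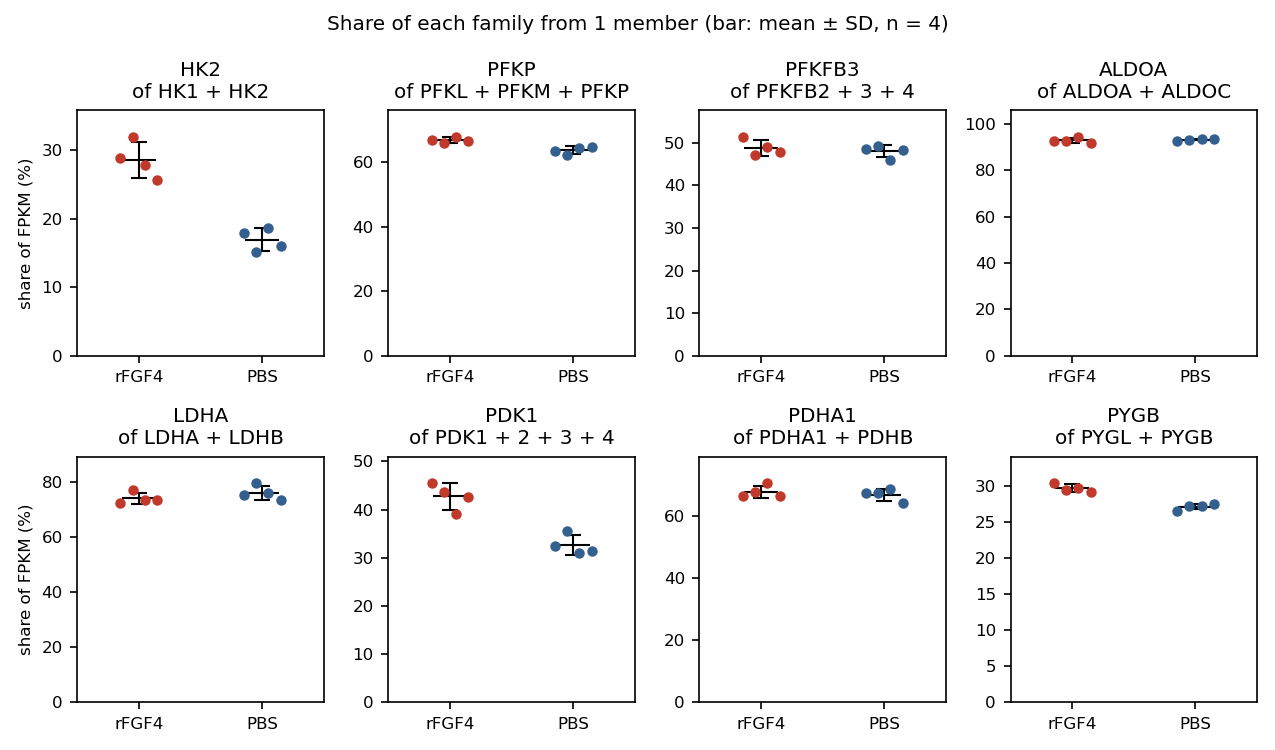
Share (percent) of the summed FPKM of 8 enzyme families that came from 1 member, in each library, rFGF4 left of PBS, with the mean and SD of 4 libraries. The HK2, PFKP, PDK1 and PYGB shares are higher in all 4 rFGF4 libraries than in any PBS library, and those of PFKFB3, ALDOA, LDHA and PDHA1 overlap.

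Set out as shares of each family, some isozyme shares did not overlap between the groups for hexokinase, phosphofructokinase, the pyruvate dehydrogenase kinases and glycogen phosphorylase. The shares restate the FPKM values above as a description with no test, and neither PDK1 nor PDK2 passed. How often shares in other gene families do not overlap was not examined. The HK2 share averaged 28.6% ± 2.66 in the rFGF4 libraries and 16.9% ± 1.64 in the PBS libraries (SD, n = 4 each). The PFKP share averaged 66.9% ± 0.857 in the rFGF4 libraries and 63.8% ± 1.15 in the PBS libraries, and the PFKL share 13.9% ± 0.723 in the rFGF4 libraries and 17.1% ± 0.159 in the PBS libraries. The PFKM shares overlapped, at 19.2% ± 1.17 in the rFGF4 libraries and 19.1% ± 1.01 in the PBS libraries. The PYGB share was 29.1% to 30.4% in the rFGF4 libraries and 26.6% to 27.5% in the PBS libraries. ALDOA supplied 91.5% to 94.4% of aldolase FPKM in the rFGF4 libraries and 92.6% to 93.4% in the PBS libraries. LDHA supplied 72.5% to 77.1% of lactate dehydrogenase FPKM in the rFGF4 libraries and 73.3% to 79.6% in the PBS libraries. ENO1 supplied at least 99.8% of enolase FPKM in every library. The PFKFB shares overlapped, and their summed level was 7.6 to 11.8 FPKM in the rFGF4 libraries and 10.8 to 12.2 FPKM in the PBS libraries.

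The genes around these enzymes were described from lists chosen for their place in the pathways. Of all genes tested 10.0% were called, 5.49% higher and 4.54% lower, and the median log2 fold change was 0.002; the lists are small, so 1 gene moves a share widely. Of 6 tested glucose and lactate carriers 1 rose and 0 fell, with a median log2 fold change of 0.03. That gene was SLC16A1, a lactate and pyruvate carrier of the plasma membrane, at 20.7, 22.3, 23.7 and 20.2 FPKM in the rFGF4 libraries, against 16.6, 18, 18.2 and 19.1 FPKM in the PBS libraries, which do not overlap (log2 fold change 0.3, SE 0.07, edgeR adjusted p = 0.038). The main glucose carrier gene SLC2A1 averaged 27.2 ± 1.49 FPKM in the rFGF4 libraries and 28.8 ± 1.25 FPKM in the PBS libraries (SD, n = 4 each), a log2 fold change of −0.06 (SE 0.07). SLC2A3 and SLC16A3 were below the filter, at most 0.119 and 0.914 FPKM. Of 9 other tested pentose phosphate genes 0 passed, with a median log2 fold change of −0.18, 2 positive and 7 negative. Of 8 tested genes of pyruvate entry and the dehydrogenase complex 0 passed, with a median log2 fold change of −0.08, 3 positive and 5 negative. Of 11 other tested glycolysis and gluconeogenesis genes 1 rose and 1 fell, with a median log2 fold change of −0.08, 3 positive and 8 negative. The one that rose, PGAM5 (0.35, SE 0.06), is a mitochondrial protein phosphatase named like the mutases, and the one that fell, GALM (−0.58, SE 0.11), encodes the mutarotase that interconverts the anomers of galactose and glucose. Of 13 tested other glycogen genes PHKB, a subunit of phosphorylase kinase, fell (−0.26, SE 0.07) and 12 did not pass; the median log2 fold change of these 13 genes was −0.11, 3 positive and 10 negative. The GALM call held under all 17 alternatives. The PGAM5 call ended without PBS replicate 2 (edgeR adjusted p = 0.0509). The SLC16A1 call ended without rFGF4 replicate 1, 2 or 3 or PBS replicate 1, 2 or 3. With every library kept, it also ended with no filter and with the replicate block. The PHKB call ended when any 1 library but rFGF4 replicate 4 was left out. With every library kept, it also ended with no filter, filterByExpr, the filter of 0.1 FPKM and both limma settings. The edgeR adjusted p was at most 0.106 for SLC16A1 and 0.12 for PHKB.

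Regulators of these enzymes were described in the same way. Of 22 tested genes of the hypoxia-inducible factor pathway outside glycolysis 3 rose and 2 fell, beside 5.49% of all genes tested called higher and 4.54% lower, with a median log2 fold change of −0.09. VEGFA, a vessel growth factor, rose by 1.29 (SE 0.05), STC2 by 0.53 (SE 0.12) and HILPDA, a lipid droplet protein, by 0.31 (SE 0.08). DDIT4, an inhibitor of mTOR signalling, fell by 0.63 (SE 0.12) and P4HA2, a collagen prolyl hydroxylase, fell by 0.3 (SE 0.07). HIF1A itself stood at 27.4, 27.5, 26.2 and 18.3 FPKM in the rFGF4 libraries and 22.6, 22, 23.9 and 18.8 FPKM in the PBS libraries. Replicate 4 was the lowest of each group, and the log2 fold change of 0.21 (SE 0.12) did not pass (edgeR adjusted p = 0.338). HIF1A passed in 1 of 17 alternatives, without rFGF4 replicate 4 (edgeR adjusted p = 0.0397). That library had the highest summed FPKM over all genes, 339941 against 295136 to 320247 in the others. It also had the lowest TMM factor (0.9579). Of 17 tested glucose-sensing and other regulators 3 rose and 1 fell, beside the same 5.49% and 4.54% of all genes tested, with a median log2 fold change of 0.02. TXNIP, which limits glucose uptake and is induced by glucose through the MondoA and MLX factors, stood at 2.67, 2.94, 2.47 and 3.02 FPKM in the rFGF4 libraries, against 4.75, 5.32, 4.81 and 4.78 FPKM in the PBS libraries. The groups did not overlap, and TXNIP fell by 0.8 (SE 0.1, edgeR adjusted p = 0.00189), a call that held in 17 of 17 alternatives. MLX rose by 0.34 (SE 0.07), and the forkhead factor genes FOXK1 and FOXK2, whose products promote expression of glycolytic enzymes in mice, rose by 0.37 (SE 0.09) and 0.27 (SE 0.06). MYC stood at 17.8, 7.92, 1.16 and 10.6 FPKM in the rFGF4 libraries and 14.7, 12.8, 15.1 and 10.1 FPKM in the PBS libraries, with rFGF4 replicate 3 far below the rest, and did not pass (log2 fold change −0.46, SE 0.61). The calls for VEGFA, DDIT4 and TXNIP held under every alternative run. Those for STC2, HILPDA, P4HA2, MLX, FOXK1 and FOXK2 each ended when 1 of several libraries was left out, with edgeR adjusted p of at most 0.0934, 0.123, 0.0964, 0.0536, 0.114 and 0.0788 over the alternatives. The libraries concerned were rFGF4 replicate 3, PBS replicate 1 or PBS replicate 3 for MLX, rFGF4 replicate 1 or 3 or PBS replicate 2 or 3 for FOXK2, and rFGF4 replicate 2, 3 or 4 or PBS replicate 2, 3 or 4 for STC2. For FOXK1 they were all but rFGF4 replicate 3, for HILPDA all but rFGF4 replicate 1, and for P4HA2 all but rFGF4 replicate 4. With every library kept, the calls for STC2, HILPDA, P4HA2 and FOXK1 also ended with no filter and with the replicate block. Those for HILPDA and P4HA2 ended with filterByExpr and with the filter of 0.1 FPKM as well. The HILPDA call further ended with limma on log2(FPKM + 1), and the FOXK1 call with both limma settings.

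**Figure D5:**
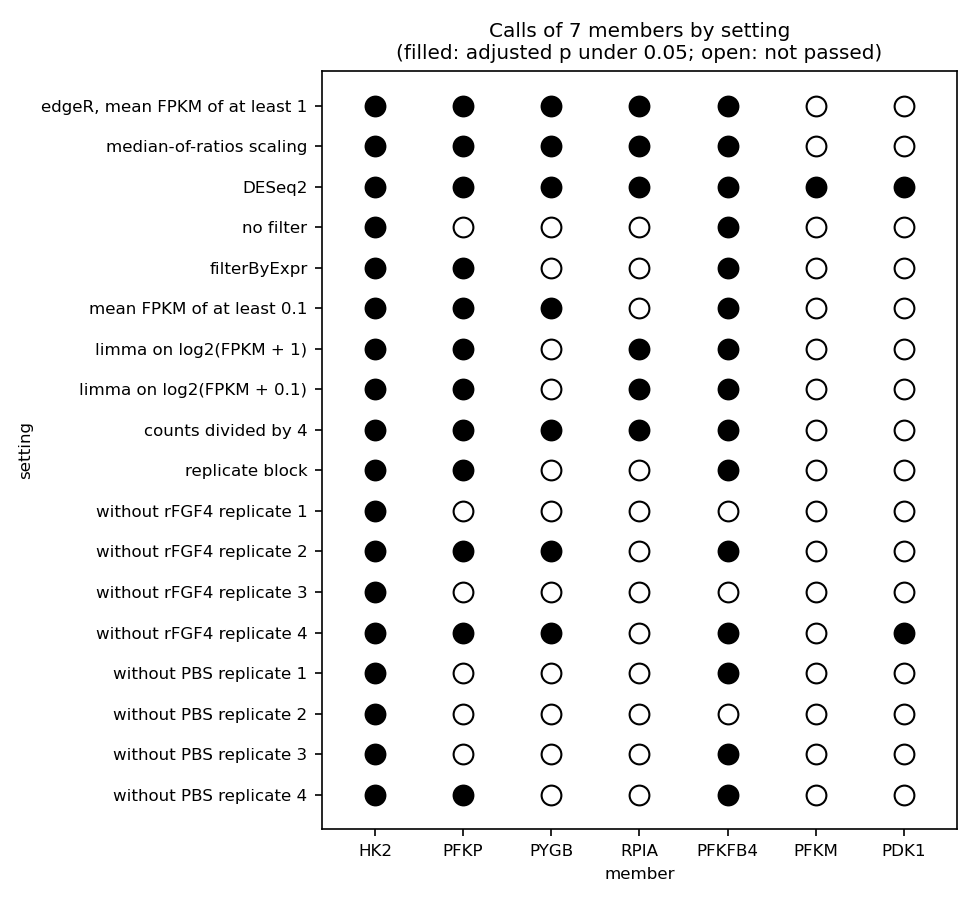
Calls of 7 enzyme genes (columns) under the reported test and 17 alternatives (rows), filled where the adjusted p was under 0.05. HK2 is filled in every row, PFKFB4 is open in 3 rows, PFKP in 6, PYGB in 11 and RPIA in 12, and PFKM and PDK1 are filled in 1 and 2 rows.

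Several of these genes have near-identical copies that can share reads. The table names 108 pseudogenes after 14 of the members, 60 of them after GAPDH, and 42 had counts in at least 1 library. Their summed counts were at most 2.4% of those of the member gene in any library, the highest being for TPI1. For LDHA they were 0.147% to 1.39%, for ENO1 0.497% to 0.835%, for PGAM1 0.318% to 0.527% and for GAPDH 0.316% to 0.413%. PGAM4, a copy of PGAM1 that lies inside the span of PGK1 in this table, averaged 13.7 FPKM in the rFGF4 libraries and 12.5 FPKM in the PBS libraries. Levels of these members are uncertain to about the extent that the authors' counting split such reads.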

How the data were processed

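The deposited table gave 2 values per gene for each of the 8 libraries, per the file headers: FPKM, and whole-number counts. The submitters' processing notes name HISAT2 2.0 and StringTie 1.3.0 without saying which step each served, and no source used here gives the genome build, annotation or strand setting. The deposited counts behave as estimated counts: 9781 entries were 4, against 3485 at 3 and 1977 at 5, so 1 fragment may be worth about 4. The authors deposited FPKM with 0.0001 for an absent gene, per the file headers and values. Columns were matched to samples by name and replicate number. A further 521 genes (chromosome Y, with XIST and TSIX) were left out.

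Estimated counts (whole as deposited) of the 11536 genes with a mean of at least 1 FPKM were tested with edgeR 4.0.16 in R 4.3.3 (TMM scaling, quasi-likelihood test, two-sided, Benjamini-Hochberg over all tested genes, threshold 0.05); the SE is that implied by the test statistic. Printed levels are deposited FPKM, not TMM-scaled. The scripts were checked on simulated data with the same spread for every gene and planted changes larger than those of PFKP, PYGB, RPIA and PFKFB4. The check does not show how well changes that small are found. Alternatives used DESeq2 1.42.0, limma 3.58.1 on log2(FPKM + 1) or log2(FPKM + 0.1), other filters and scaling, counts divided by 4, a replicate block and each library left out. The members and lists were chosen with earlier results of these data known. All members were accounted for; those called, their isozymes and the main regulated enzymes are given library by library, and of each further list up to 4 called genes per direction with the smallest p, plus SLC2A1, SLC2A3, SLC16A3, HIF1A and MYC; 1 further gene of that rule is not reported here. AC019069, AC006064, PGAM4 and the other overlapping genes were named after their values were seen. Library totals of 62044121 to 73680756 gave the tested members 569 to 584625 estimated counts per library.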

Additional observations from a re-analysis of the deposited data

Results flagged for a closer look

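In 6 of 68 groups of 4 libraries (34 tested genes, 2 groups each) 1 library lay far from the other 3, where chance gives about 1 in 20. HK1 was at 20.4 FPKM in rFGF4 replicate 4, against 21.9 to 22.1 FPKM in the others of its group, and PKM at 170.1 FPKM in the same library, against 193 to 194 FPKM. In PBS replicate 4, PGAM1 was at 229 FPKM with the others of the group at 200.3 to 202 FPKM, PDHB at 12.5 FPKM with the others at 10.7 to 11 FPKM, and TALDO1 at 75.6 FPKM with the others at 71.6 to 72.1 FPKM. LDHB was at 53.1 FPKM in PBS replicate 2, with the others of the group at 65.8 to 67.9 FPKM. None of these 6 genes passed the test between the groups, under the reported setting or any of the 17 alternatives.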

How the results depend on the processing

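Under the 17 alternatives the HK2 call held in every case, and 27 of the 34 tested enzyme genes were not called in any. Over these genes and settings, 543 comparisons kept their direction or stayed uncalled, 32 lost a call and 3 gained one, with 0 calls changing sign. The number of enzyme genes called higher was 4 and became 1 with no filter on low values, 2 with filterByExpr and 2 with the replicate block; it was 1 to 4 when a library was left out. The number called lower was 1, and 0 to 1 when a library was left out. Over all genes, 1157 calls became 1828 with DESeq2 and 595 to 1164 with a library left out. There were 595 without PBS replicate 2 and 1164 without rFGF4 replicate 4. All fits with a library left out rest on fewer libraries, and why their counts differ was not tested. PFKM and PDK1 passed with DESeq2 (adjusted p = 0.0223 and 0.0365). The deviations of same-numbered libraries from their group means had correlations of 0.123, 0.058, −0.022 and 0.284 across the tested genes. These were over 0.1 for replicates 1 and 4, each of which correlated best with its own number, and under 0.1 for replicates 2 and 3, of which only PBS replicate 2 did. Whether the numbers pair the libraries was not established; the replicate block gave 1013 calls over all genes, without RPIA and PYGB (adjusted p = 0.0672 and 0.0645). The median log2 fold change of all genes lay between −0.027 and 0.003 under all settings. With 4 libraries a group, log2 fold changes of 0.2 (PFKM) and 0.21 (PYGB), each with no overlap between the groups, lay on opposite sides of the threshold.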

Other observations

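AC006064, a gene on the strand opposite to GAPDH that covers 577 bases at its end, differed between libraries of the same group. It stood at 0.713, 1.22, 2.8 and 2.73 FPKM in rFGF4 replicates 1 to 4, against 0.94, 1.01, 17.2 and 39.6 FPKM in PBS replicates 1 to 4. PBS replicates 3 and 4 held 535 and 1297 counts, against 27 to 100 in the other 6 libraries. Its log2 fold change of −2.94 (SE 1.17) did not pass (edgeR adjusted p = 0.162). GAPDH itself stood at 2553 and 2693 FPKM in those 2 PBS libraries and did not stand apart.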
